A study of Mus musculus with 8 samples.

Results

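The Hedgehog receptors, their co-receptors, Sufu and the Gli transcription factors were examined in mouse embryonic fibroblasts (MEFs) that carry the Dp1Tyb duplication. The 9 genes were Ptch1, Smo, Boc, Cdon, Gas1, Sufu, Gli1, Gli2 and Gli3. They were chosen by name for their place in the pathway, with no threshold on their levels, though with earlier results of these data known. All 9 of the 9 have a row among the 19493 endogenous genes of the count table, and all 9 were among the 16470 genes tested after a filter on low counts. None of the 9 passed the test between genotypes. With the libraries scaled to their endogenous genes, the fitted levels in Dp1Tyb MEFs ran from 0.618 times the WT level for Gli1, a value that rested on a single WT library, to 1.03 times for Cdon. With the libraries scaled to spike-ins they ran from 0.670 times for Gli1 to 1.11 times for Sufu. Both directions turned when a single library was left out: Gli1 without WT replicate 1, and Sufu without WT replicate 3 or Dp1Tyb replicate 1.

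Hedgehog proteins are secreted signals that pattern the limbs, the neural tube and the face of the embryo and keep precursor cells dividing. Ptch1 holds the membrane protein Smo inactive at the primary cilium. When a Hedgehog ligand binds Ptch1, with the help of the co-receptors Boc, Cdon and Gas1, Smo is released, Sufu lets go of the Gli proteins, and Gli2 acts as an activator in place of the repressor made from Gli3. Gli1 and Ptch1 are themselves switched on by Gli activators, so that their transcripts are widely read as a measure of pathway activity. Embryonic fibroblasts carry primary cilia and are a common cell for the study of this pathway.

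Poly(A) RNA was sequenced from 4 WT and 4 Dp1Tyb cultures of MEFs, made from littermate embryos at stage E14.5 on a background labelled C57BL/6J.129P2. Dp1Tyb mice have an extra copy of the part of chromosome 16 from Lipi to Zbtb21, and WT embryos lack it. Heads and viscera were removed before the cells were dissociated, so that each culture is a mix of the cells of a trunk and limbs after a short time in medium with serum. The labels name no Hedgehog ligand, agonist or inhibitor for either genotype. No label ties a culture to a certain embryo or day, and the p-values measure the spread between these cultures, which may in part be technical.

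Total counts ran from 17698900 to 26471758 per library, and ERCC spike-ins, synthetic RNAs added to the same number of cells, held 0.882% to 1.65% of them. All 12 fibroblast markers were present, with a sum of 23272 to 32580 CPM (counts scaled to a common library size). The summed markers of epithelium (4.87 to 20.0 CPM), endothelium (31.8 to 78.9 CPM), skeletal muscle (4.72 to 36.3 CPM, with Myod1 and Myf5 absent from the table), chondrocytes (57.1 to 144.3 CPM) and neural cells (45.2 to 89.9 CPM) overlapped between the genotypes, although 2 of the 4 tested neural markers had an unadjusted edgeR p under 0.05. The 5 leukocyte markers did not, with 84.4 to 102.6 CPM in WT and 46.8 to 72.9 CPM in Dp1Tyb. Counts were set on 2 scales: relative scaling sets the endogenous genes of the libraries level, and spike-in scaling sets the spike-ins level. Over all tested genes the log2 fold change, Dp1Tyb over WT, had a median of 0.01 with relative scaling and 0.11 with spike-in scaling. In RNA of whole cultures, fewer cells of a type and less RNA per cell cannot be told apart.

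None of the 9 genes lies in the duplicated region, which spans chr16:75540514-97962622 on GRCm38. Boc is the only one on the same chromosome, at chr16:44485049-44558897 on the minus strand, 31.0 Mb before the duplication. Ptch1 lies at chr13:63508328-63573598, Gas1 at chr13:60174405-60177365, Gli1 at chr10:127329882-127341974 and Gli2 at chr1:118834132-119053619, all on the minus strand. On the plus strand are Smo at chr6:29735503-29761365, Sufu at chr19:46396896-46488804, Cdon at chr9:35421128-35507652 and Gli3 at chr13:15463235-15730026. Gli1 overlaps Arhgap9, a gene on the opposite strand that had 6 to 26 counts per library, and the sources used here do not give the strand option of the counting, so that part of the counts of either gene could belong to the other.

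The 9 genes differed far more from one another than between the genotypes. Levels between genes were compared as RPKM, that is, per kilobase of merged exons, over all 8 libraries. The co-receptor Gas1, a protein anchored to the outer face of the cell membrane, was the highest at 39.4 ± 9.93 RPKM (SD, n = 8), above 93.9% of the tested genes. Its fellow co-receptor Cdon, an immunoglobulin-family membrane protein, followed at 23.1 ± 4.23 RPKM. Gli3, the main source of the Gli repressor, stood at 19.6 ± 1.62 RPKM. Smo, which carries the signal across the membrane, had 13.0 ± 1.41 RPKM, and the co-receptor Boc 12.9 ± 2.35 RPKM.

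The lower part of the order held Gli2 at 4.70 ± 0.901 RPKM, Sufu at 3.69 ± 0.400 RPKM and Ptch1 at 1.42 ± 0.296 RPKM. Gli1, the amplifier of the response, was last at 0.173 ± 0.128 RPKM, above only 3.41% of the tested genes. The ranges over the 8 libraries did not overlap between Gli3 and Smo, Boc and Gli2, Sufu and Ptch1, or Ptch1 and Gli1. They overlapped between the other neighbours: Smo was above Boc in 5 of 8 libraries, Cdon above Gli3 in 7, Gli2 above Sufu in 7 and Gas1 above Cdon in 8. With the longest transcript as the length, Sufu had 6.28 RPKM, above Gli2 at 4.87 RPKM, and Smo had 19.4 RPKM.

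The balance of the Gli factors favoured Gli3 in all 8 libraries. The ratio of Gli3 to Gli2 in RPKM was 3.26, 4.57, 3.64 and 5.35 in the WT libraries, in replicate order, against 4.22, 4.82, 3.83 and 4.44 in the Dp1Tyb libraries. The 4 Dp1Tyb values thus lay within the WT range. Gli3 exceeded Gli1 by 41.1 to 531.7 times in WT and by 109.1 to 245.7 times in Dp1Tyb, again with the Dp1Tyb libraries inside the WT range. Smo exceeded Ptch1, the receptor that restrains it, by 6.26 to 11.5 times in WT and by 8.38 to 12.5 times in Dp1Tyb.

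**Figure D1:**
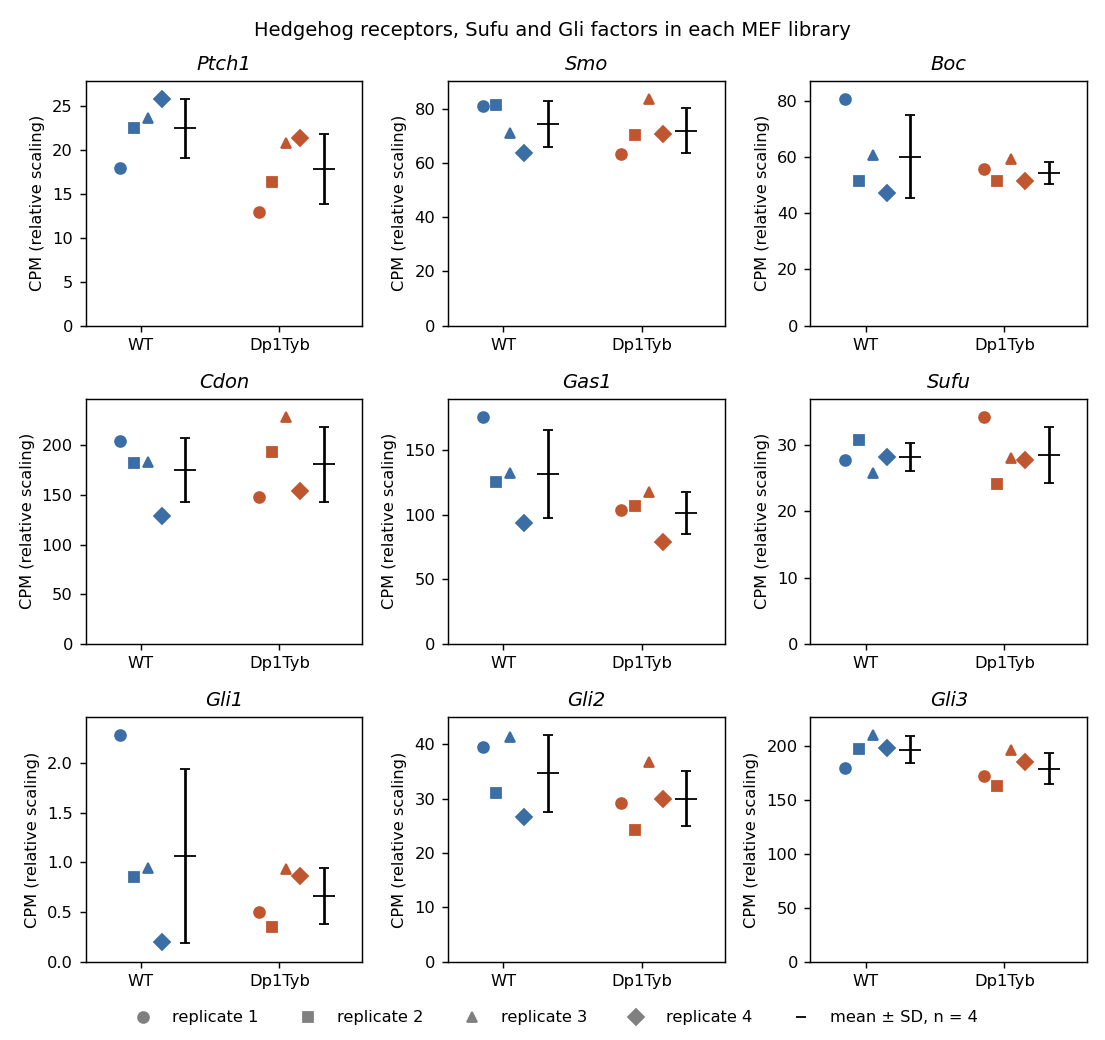
CPM with relative scaling of each gene in each MEF library; blue symbols are WT and orange symbols Dp1Tyb, the symbol shape gives the replicate, and black bars are the mean ± SD of 4 libraries. The genotypes overlap in all 9 panels, and Gli1 has its highest value, 2.28 CPM, and its lowest, 0.194 CPM, in WT libraries.

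Ptch1 had one of the larger differences among the 9, yet it did not pass the test. With relative scaling its level, in the order of the replicate numbers, was 17.9, 22.5, 23.6 and 25.7 CPM for WT against 12.9, 16.3, 20.7 and 21.3 CPM for Dp1Tyb, and values below keep this order. All 4 Dp1Tyb libraries lay below the WT mean and 2 of them below every WT library, but the groups overlapped through WT replicate 1. The mean was 22.4 ± 3.32 CPM in WT and 17.8 ± 3.96 CPM in Dp1Tyb (SD, n = 4). The fitted log2 fold change was −0.34 (SE 0.18, 95% interval −0.74 to 0.07; edgeR's quasi-likelihood test, Benjamini-Hochberg adjusted p = 0.999, unadjusted p = 0.0963). Leaving out Dp1Tyb replicate 1, the lowest library, brought it to −0.21. With spike-in scaling it was −0.20 (SE 0.34, 95% interval −0.86 to 0.45), close to 0 without Dp1Tyb replicate 2 (−0.0087) or WT replicate 4 (−0.010) and −0.44 without Dp1Tyb replicate 4.

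Smo, the partner of Ptch1, was nearly level. It had 81.2, 81.4, 71.2 and 63.8 CPM in WT and 63.5, 70.4, 83.7 and 70.7 CPM in Dp1Tyb. The highest and the lowest of the 8 values were both in Dp1Tyb libraries. Its log2 fold change was −0.05 (SE 0.12, 95% interval −0.31 to 0.22) with relative scaling and 0.06 (SE 0.32) with spike-in scaling.

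Of the 3 co-receptors, Gas1 had the largest difference. Its level was 175.7, 125.5, 132.2 and 93.4 CPM in WT and 103.9, 106.7, 117.4 and 78.8 CPM in Dp1Tyb. WT replicate 1 stood above all other libraries, and the Dp1Tyb libraries lay below the WT mean of 131.7 CPM while 3 of them stayed above WT replicate 4. The log2 fold change was −0.37 (SE 0.19, 95% interval −0.80 to 0.05; edgeR adjusted p = 0.999, unadjusted p = 0.0773), the smallest p of the 9. Without WT replicate 1 it was −0.20. With spike-in scaling it was −0.30 (SE 0.32) over all libraries and turned to 0.027 without WT replicate 1.

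Boc had 80.6, 51.6, 60.6 and 47.3 CPM in WT and 55.8, 51.3, 59.3 and 51.3 CPM in Dp1Tyb. The 4 Dp1Tyb libraries lay within the WT range, and WT replicate 1 was again the highest. The log2 fold change of Boc was −0.14 (SE 0.16, 95% interval −0.50 to 0.22), and it was 0.04 without WT replicate 1. Cdon had 204.6, 182.6, 183.5 and 129.0 CPM in WT and 147.8, 193.5, 228.5 and 153.7 CPM in Dp1Tyb. Its 2 genotypes covered much the same range, with a log2 fold change of 0.05 (SE 0.18, 95% interval −0.35 to 0.44).

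Sufu, which holds Gli proteins in the cytoplasm, had 27.8, 30.9, 25.8 and 28.3 CPM in WT and 34.3, 24.1, 28.1 and 27.8 CPM in Dp1Tyb. Dp1Tyb libraries held both the highest and the lowest value. Fitted between genotypes, the log2 fold change was 0.02 (SE 0.13, 95% interval −0.26 to 0.30), and 0.15 (SE 0.33) with spike-in scaling.

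Gli1 was close to the limit of what could be counted. WT libraries gave 51, 20, 20 and 4 reads and Dp1Tyb libraries 13, 6, 19 and 15, which is 2.28, 0.848, 0.947 and 0.194 CPM against 0.503, 0.346, 0.935 and 0.863 CPM. WT libraries held both ends of the range. The exact 95% Poisson intervals of the ends, 38.0 to 67.1 for the count of 51 and 1.09 to 10.2 for the count of 4, did not meet, so the spread within WT was larger than counting error, which is all that these intervals cover.

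The spread of Gli1 set the limits of its comparison. The SD of its log2(CPM + 0.5) within genotypes was 0.63, and 96.1% of 3240 genes with a mean count within a factor of 2 of that of Gli1 had a smaller one. The log2 fold change was −0.69 (SE 0.60, 95% interval −2.04 to 0.65; edgeR adjusted p = 0.999, unadjusted p = 0.275). Without WT replicate 1 it was −0.01, and without WT replicate 4 it was −1.03, so that single WT libraries decided its size. With spike-in scaling it was −0.58 (SE 0.52), and it turned to 0.35 without WT replicate 1.

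Gli2, the chief activator, had 39.5, 31.0, 41.4 and 26.6 CPM in WT and 29.1, 24.3, 36.7 and 29.9 CPM in Dp1Tyb. One Dp1Tyb library was below all WT libraries and the rest lay among them. For Gli2 the log2 fold change was −0.21 (SE 0.17, 95% interval −0.59 to 0.18), and −0.10 without WT replicate 3.

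Gli3 was the steadiest of the 9, with an SD within genotypes of 0.10 on the log2 scale. It had 179.9, 197.6, 209.9 and 198.2 CPM in WT and 171.7, 163.3, 195.9 and 185.3 CPM in Dp1Tyb. Each Dp1Tyb library lay below the WT mean of 196.4 CPM, and 2 lay below every WT library. The log2 fold change was −0.13 (SE 0.10, 95% interval −0.35 to 0.08; edgeR adjusted p = 0.999, unadjusted p = 0.198). With spike-in scaling it was −0.0010 (SE 0.32), and its sign there changed with the way the spike-ins were summarised.

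**Figure D2:**
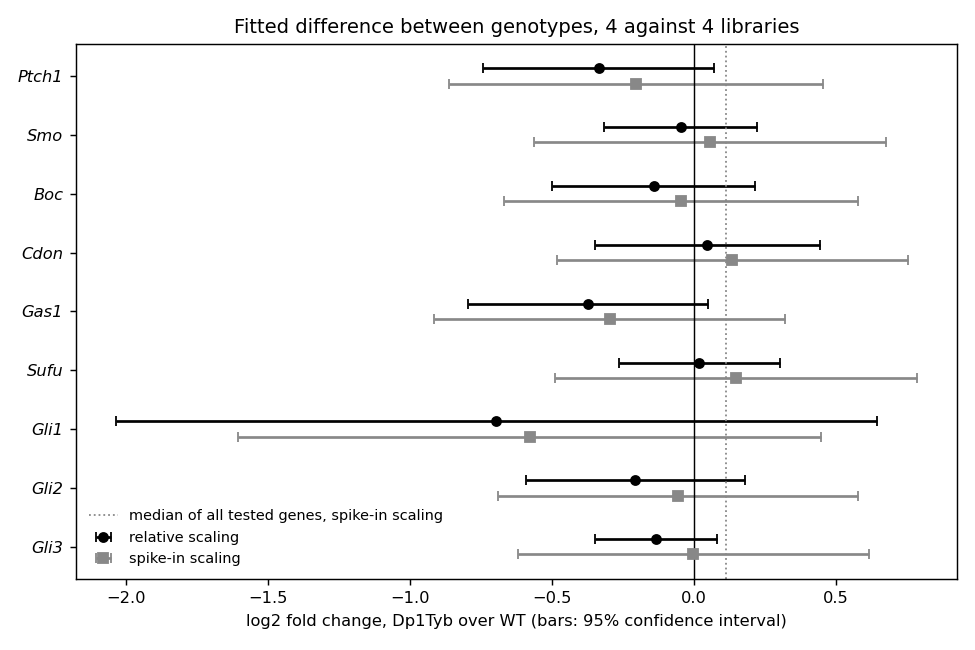
Fitted log2 fold change, Dp1Tyb over WT, of each gene with its 95% confidence interval, with relative scaling (black circles) and spike-in scaling (grey squares); the dotted line is the spike-in median of all tested genes, 0.11. All 18 intervals include 0, and the interval of Gli1 is the widest.

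The counts of the 9 were set beside those of all tested genes. With relative scaling 0 of 9 were called at an adjusted p under 0.05, beside 0.0182% of all tested genes. At an unadjusted p under 0.05 the count was also 0 of 9, beside 4.27% of all tested genes. With spike-in scaling 0 of 9 were called (0.0121% of all genes) and 0 had an unadjusted p under 0.05 (1.17%). DESeq2 called 0 of 9 as well with either scaling, and with spike-in scaling 0 of 9 had an unadjusted DESeq2 p under 0.05. Over all tested genes DESeq2 called 54 with relative scaling and 2 with spike-in scaling. With spike-in scaling it gave 145 of 16470 genes an unadjusted p under 0.05.

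The fitted log2 fold change was below 0 for 7 of 9 genes with relative scaling, beside 48.8% of all tested genes, and for 6 of 9 with spike-in scaling, beside 29.6%. The median of the 9 was −0.14 with relative scaling, beside 0.01 for all tested genes, and −0.05 with spike-in scaling, beside 0.11. In none of the 9 did all Dp1Tyb libraries lie below or above all WT libraries, which 1.52% and 1.64% of the tested genes did with relative scaling. The 9 values are not independent of each other, since several of the genes moved together between libraries.

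Some of the genes followed each other across the 8 libraries with relative scaling, irrespective of genotype. Gli1, Gli2 and Boc were high in WT replicate 1 and low in WT replicate 4 and Dp1Tyb replicate 2, and Gas1 was also highest in WT replicate 1. The deviations of WT replicate 1 from the mean of the 8 libraries, in log2(CPM + 0.5), were 1.14 for Gli1, 0.63 for Gas1, 0.51 for Boc and 0.31 for Gli2. Ptch1 went another way and was highest in WT replicate 4, where its deviation was 0.38 while that of Gli1 was −0.86.

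Gli1 and Ptch1, both targets of Gli activators, did not follow each other. Pearson's r was −0.03 (exact permutation p = 0.945) and Spearman's rho −0.02 (exact permutation p = 0.977, n = 8). Without Dp1Tyb replicates 1 and 2, the libraries farthest from the median of Ptch1, r was −0.92 over 6 libraries, and without WT replicate 4 it was 0.33, so that its sign rests on single libraries. Its adjusted p over the 36 pairs was 0.999.

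Ptch1 and Gli3 varied together, with r = 0.84 (exact permutation p = 0.00848, adjusted p over the 36 pairs = 0.0795) and rho = 0.93 (exact permutation p = 0.00223, adjusted p = 0.0402). Without the same 2 libraries r was 0.77, and over the deviations from the genotype means it was 0.76. Gli1 and Gli2 had r = 0.81 (exact permutation p = 0.0110, adjusted p = 0.0795) and rho = 0.93 (exact permutation p = 0.00223, adjusted p = 0.0402), with r = 0.84 without WT replicates 1 and 4. Gli1 and Boc had the highest r of all pairs, 0.88 (exact permutation p = 0.00546, adjusted p = 0.0795) with rho = 0.90 (exact permutation p = 0.00456, adjusted p = 0.0548), but r was 0.44 without WT replicates 1 and 4 and so rests on those libraries. Smo and Cdon had r = 0.85 (exact permutation p = 0.0103, adjusted p = 0.0795) and rho = 0.74 (exact permutation p = 0.0458, adjusted p = 0.236), with r = 0.84 without WT replicate 2 and Dp1Tyb replicate 3.

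Across all 36 pairs r was positive in 22 and none passed an adjusted p under 0.05 by Pearson's r, with 8 at an unadjusted p under 0.05. With spike-in scaling all 36 were positive and 21 passed an adjusted p under 0.05 (22 unadjusted), a count that includes the scaling factor that the genes of a library share.

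**Figure D3:**
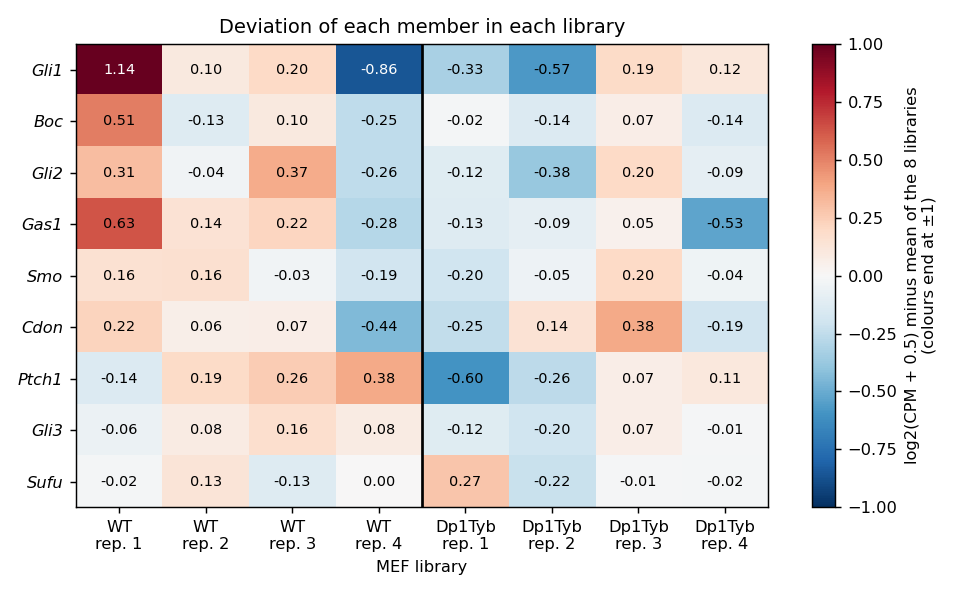
Deviation of each gene (rows) in each library (columns), as log2(CPM + 0.5) minus the mean of the 8 libraries with relative scaling; red is above the mean, blue below, and the black line parts WT from Dp1Tyb. Gli1, Boc, Gli2 and Gas1 are all red in WT replicate 1, while Ptch1 is at its highest, 0.38, in WT replicate 4.

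The genes whose levels across the libraries were most like those of Gli1 and Ptch1 were sought among all genes whose mean count reached 100. For Gli1 they were Map3k10 (r = 0.98), Ksr1 (0.97), A230050P20Rik (0.96), Ltbp4 (0.95) and Rtl8c (0.94), of 10962 genes over 8 libraries. For Ptch1 they were Asxl1 (r = 0.98), Gm37653 (0.97), Lmbr1l (0.97), Gm36527 (0.96) and Glp2r (0.96), of 10961 genes. By the same measure Boc ranked 43 and Gli2 138 for Gli1, and Gli3 ranked 140 for Ptch1. So many genes compared over 8 libraries give high values at the top of any such order.

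Promoter sequences from RefSeq (GRCm38.p6) were at hand for 7 of the 9 genes, Gli1 and Boc not being among them, as windows from 250 bases before to 50 bases after a start site. The 9-base Gli recognition sequence GACCACCCA, or TGGGTGGTC on the other strand, was found in 0 of these 7 windows and in 0.253% of 32851 mouse promoter windows of the same length. The GC box GGGCGG, or CCGCCC on the other strand, was found in 5 of the 7 and in 35.7% of all windows. No match says only that these letters are not in these windows. The 250 bases before the start are printed for Ptch1, which varied with Gli3, and Gli2, which varied with Gli1, and no exon of the GENCODE annotation lies inside them. Capitals mark the GC box, and both are read 5′ to 3′ on the minus strand, from chr13:63565736-63565985 for Ptch1 and chr1:119053620-119053869 for Gli2. The Ptch1 window lies within the annotated span of the gene, before the start of a shorter transcript. The searched windows of Cdon and Gli3 also lie within the spans of their genes. Annotated exons on either strand cover all 250 bases before the start for Gli3 and for Gas1. G and C made up 78.4% of the printed Ptch1 sequence and 67.2% of the Gli2 sequence. In the full windows they made up 76.3% for Ptch1 and 67.3% for Gli2, beside a median of 52.7% over all promoter windows.
Ptch1: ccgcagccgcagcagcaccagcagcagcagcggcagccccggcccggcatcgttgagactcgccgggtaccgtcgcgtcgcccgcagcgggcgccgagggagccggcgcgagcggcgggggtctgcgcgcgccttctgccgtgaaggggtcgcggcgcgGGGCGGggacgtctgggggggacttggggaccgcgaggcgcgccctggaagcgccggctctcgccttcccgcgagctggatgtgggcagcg
Gli2: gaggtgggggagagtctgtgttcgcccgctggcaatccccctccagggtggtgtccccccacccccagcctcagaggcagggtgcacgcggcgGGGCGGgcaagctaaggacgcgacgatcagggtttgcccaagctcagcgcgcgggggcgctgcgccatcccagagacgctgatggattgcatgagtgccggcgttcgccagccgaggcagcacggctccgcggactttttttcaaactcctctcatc

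The rest of the pathway was described with 5 lists holding 64 genes, each counted once. Of these 62 had a row and 58 were tested. With relative scaling 0 of 58 were called (edgeR adjusted p, smallest 0.820), beside 0.0182% of all tested genes. At an unadjusted p under 0.05, 0 were higher and 2 lower in Dp1Tyb, beside 1.74% and 2.53% of all tested genes, and with spike-in scaling there were 0 of 58 in either direction, beside 0.85% of all tested genes higher and 0.316% lower. The median log2 fold change of the 58 was −0.02 with relative scaling and 0.07 with spike-in scaling.

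Transcripts of the ligands were absent from the table or scarce. Shh and Ihh, the ligands of the neural tube and of growing cartilage, had no row in the table. Dhh, the ligand known from testis and nerve sheath, had 14, 8, 11 and 12 counts in WT and 8, 7, 9 and 8 in Dp1Tyb, and was not among the genes tested. Disp2 and Scube2 were not tested either. Disp1, which releases the lipid-linked ligand from the cell, had 34.1 to 41.5 CPM in WT and 36.4 to 49.3 CPM in Dp1Tyb and a log2 fold change of 0.18 (SE 0.13). Hhat, the enzyme that adds palmitate to the ligand, had 0.12 (SE 0.15), and Scube3, a secreted helper of release, −0.09 (SE 0.22). The 4 tested genes of this list had a median of 0.10 with relative and 0.19 with spike-in scaling.

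At the level of the receptors, 0 of 10 further genes were called in either scaling. With relative scaling 8 had a log2 fold change below 0 (48.8% of all tested genes did), with a median of −0.08, and with spike-in scaling 4 did (29.6%), with a median of 0.04. Arrb2, a beta-arrestin that binds activated Smo and many other receptors, had 10.7, 11.1, 11.5 and 10.7 CPM in WT and 6.96, 6.58, 9.40 and 6.44 CPM in Dp1Tyb. All Dp1Tyb libraries lay below all WT libraries. With relative scaling that held for 1 of the 58 tested genes of the pathway lists and for 1.52% of all tested genes. The log2 fold change of Arrb2 was −0.58 (SE 0.16; edgeR adjusted p = 0.820, unadjusted p = 0.00388), and −0.47 (SE 0.37) with spike-in scaling, where the genotypes overlapped. The summed leukocyte markers were likewise below every WT library in all Dp1Tyb libraries, and the 4 markers tested each had an unadjusted edgeR p under 0.05. Taken singly, only Ptprc separated the genotypes (13.7 to 15.1 CPM in WT, 7.08 to 8.25 CPM in Dp1Tyb). Csf1r, Cd68 and Adgre1 overlapped, and Aif1, too low to be tested, had 0.194 to 0.492 CPM in WT and 0.288 to 0.519 CPM in Dp1Tyb. Their part in the difference of Arrb2 was not tested.

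Arrb1, the other beta-arrestin, had a log2 fold change of −0.27 (SE 0.16), and Gpc4, a heparan sulphate proteoglycan, 0.28 (SE 0.19). Hhip, a membrane decoy that binds ligand and is induced by the pathway, had 22.3, 10.5, 17.1 and 17.7 CPM in WT and 12.3, 12.1, 20.0 and 18.6 CPM in Dp1Tyb, with a log2 fold change of −0.10 (SE 0.25).

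In the lists of cytoplasmic regulators and cilium genes, 0 genes were called. Of 18 regulators, among them the kinases and ubiquitin ligase parts that process Gli proteins, 9 were below and 9 above 0, within a range of −0.12 to 0.08 and with a median of 0.0021, with relative scaling. With spike-in scaling 2 were below and 16 above, with a median of 0.11, equal to that of all tested genes to 2 decimals. The smallest p-values with relative scaling belonged to Cul3, the scaffold of a ubiquitin ligase (−0.10, SE 0.14), Ulk3, a kinase of Gli proteins (−0.12, SE 0.19), and Gsk3b, a kinase that primes Gli3 for processing (−0.07, SE 0.11). The 15 cilium genes ran from −0.18 to 0.14 with a median of −0.05 with relative scaling, where 10 were below 0 (48.8% of all tested genes were). With spike-in scaling they had a median of 0.06, and 5 were below 0 (29.6% of all tested genes). They included Dync2h1, the motor of return transport in the cilium (−0.18, SE 0.14), Rab23, a small GTPase that restrains the pathway (0.14, SE 0.11), and Ift80, a part of the ciliary transport complex (−0.11, SE 0.13). Single libraries moved these too: without WT replicate 1 Dync2h1 had −0.055 and Ift80 −0.025, and without Dp1Tyb replicate 2 Rab23 had 0.066. Unadjusted edgeR p-values under 0.05 numbered 0 in both lists, beside 4.27% of all tested genes with relative and 1.17% with spike-in scaling.

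Among the targets other than Ptch1 and Gli1, 0 of 12 tested genes were called, and the median was −0.02 with relative and 0.10 with spike-in scaling. Ccnd1, the G1 cyclin induced by many growth signals, had 305.5, 216.2, 226.1 and 194.3 CPM in WT and 217.2, 157.8, 174.2 and 156.2 CPM in Dp1Tyb. In 3 of 4 Dp1Tyb libraries it was below every WT library, and the log2 fold change was −0.42 (SE 0.16; edgeR adjusted p = 0.999, unadjusted p = 0.0279), and −0.31 (SE 0.32) with spike-in scaling. Without WT replicate 1, its highest library, these values were −0.26 and −0.021, and the spike-in value was −0.11 without Dp1Tyb replicate 2 and −0.50 without Dp1Tyb replicate 1. Rab34, a GTPase of cilium formation, had 67.1, 70.8, 67.2 and 65.6 CPM in WT and 72.6, 75.7, 71.2 and 74.0 CPM in Dp1Tyb. All its Dp1Tyb libraries lay above all WT libraries, with a log2 fold change of only 0.12 (SE 0.08; edgeR adjusted p = 0.999, unadjusted p = 0.181). With relative scaling such a separation was found in 1 of the 58 tested genes of the pathway lists and in 1.64% of all tested genes. With spike-in scaling the genotypes of Rab34 overlapped, at 47.9 to 79.6 CPM in WT and 52.0 to 97.2 CPM in Dp1Tyb. Nrp1, a co-receptor of semaphorins and growth factors, had 0.13 (SE 0.10).

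Foxl1, a forkhead target known from gut mesenchyme, was too low to be tested and was singled out after its values were seen. It had 10, 7, 10 and 8 counts in WT and 5, 2, 1 and 4 in Dp1Tyb. Its genotypes did not overlap with relative scaling, at counts where a few reads decide the order. They overlapped with spike-in scaling, at 0.262 to 0.530 CPM in WT and 0.0518 to 0.302 CPM in Dp1Tyb.

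**Figure D4:**
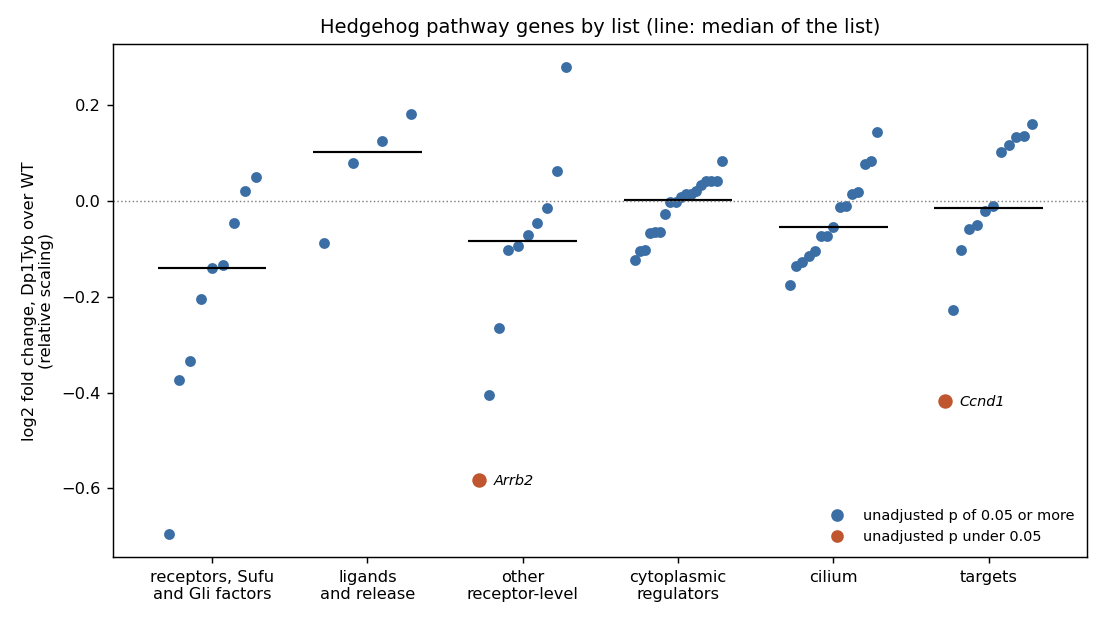
Log2 fold change with relative scaling, Dp1Tyb over WT, of every tested gene of the 9 and of the 5 pathway lists; each point is a gene, the black line is the median of its list, and orange points have an unadjusted p under 0.05. Only Arrb2 and Ccnd1 are orange, and the medians of the lists lie between −0.14 and 0.10.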

How the data were processed

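Poly(A) RNA of 4 WT and 4 Dp1Tyb MEF cultures was sequenced as paired ends from stranded TruSeq libraries. The authors, per their methods and the labels, trimmed reads with Trim Galore, aligned them with TopHat2 2.0.12 to GRCm38 with the ERCC sequences, discarded reads with several alignments and counted genes with HTSeq. The strand option and annotation release are not given in the sources used here. The deposited table holds raw, unnormalised counts of 63 spike-ins and 19493 endogenous genes, with a smallest row sum of 15, so that rarer genes had been removed. The deposited normalised values and the authors' DESeq2 1.6.3 table of fold changes and p-values were not used.

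Positions and exon lengths came from GENCODE M21, which matched 19318 gene IDs and not 175. filterByExpr kept 16470 genes. Genotypes were compared in R 4.3.3 with edgeR 4.0.16 and its two-sided quasi-likelihood test, with Benjamini-Hochberg adjustment over all tested genes and calls at 0.05. Relative scaling used TMM factors over endogenous genes, and spike-in scaling used median-of-ratios factors over the spike-ins. The spike-in fit took the spread around the trend as common to all genes and so had 98820 degrees of freedom, beside 9.89 with relative scaling. Its intervals and p-values thus make no allowance for a spread estimated from 8 libraries and may be too narrow. CPM and RPKM per library were computed from the counts. Correlations used log2(CPM + 0.5) and exact permutation of the pairings. On simulated data for 4 against 4 libraries, the test with relative scaling recovered 24% of genes changed 1.5-fold, 66% at 2-fold and 100% at 3-fold. With spike-in scaling it recovered 0%, 6% and 64%. The changed genes had a mean count of at least 100. All genes were drawn independently with the same coefficient of variation between replicates, 0.232 with relative and 0.351 with spike-in scaling. The rates hold for that setting only, and Gli1, with a mean count of 18.5, lies outside it. Between libraries of a genotype the counts differed beyond sampling noise, with a chi-square per degree of freedom of 9.54 to 86.9, so that no library was a copy of another. Depth ranged from 17698900 to 26471758 counts per library.

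The 9 genes and the pathway and marker lists were chosen with earlier results of these data known. Named beside the 9 were genes without a row or not tested, Hhip, Dhh and, in each list, up to 3 tested genes with the smallest p with relative scaling, together with the 5 genes most like Gli1 and Ptch1. A gene of the pathway lists was left out of them for a reason unrelated to its values and is not reported here. Alternatives were other scaling factors, DESeq2 1.42.0, no filter, the replicate number as a block, another gene length, and leaving out each library.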

Additional observations from a re-analysis of the deposited data

Results flagged for a closer look

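Within a genotype, 3 values with spike-in scaling lay far from the other 3 libraries by Dixon's criterion, of 104 groups of 4 libraries examined, where chance alone gives about 1 in 20. Gas1 had 208.5 CPM in WT replicate 1 and 94.3 to 110.7 CPM in the other WT libraries. Boc had 35.3 CPM in Dp1Tyb replicate 2 and 62.4 to 67.4 CPM in the other Dp1Tyb libraries. Gpc4 had 125.8 CPM in Dp1Tyb replicate 2 and 169.6 to 173.1 CPM in the others.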

How the results depend on the processing

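The count of 0 called among the 9 held under all 13 alternatives of each scaling, with a smallest edgeR or DESeq2 adjusted p of 0.385 with relative and 0.771 with spike-in scaling. The direction of Ptch1, Gli1, Gli2, Gli3 and Gas1 held throughout with relative scaling, and with spike-in scaling only that of Ptch1 and Cdon did, with values as near 0 as −0.0087 and 0.0075. Over all genes, the 3 calls with relative scaling became 54 with DESeq2 and 1 without any one library, and the 2 calls with spike-in scaling ran from 2 to 8 when a library was left out, with 8 without Dp1Tyb replicate 2, 6 without WT replicate 1 or Dp1Tyb replicate 4, and 4 without Dp1Tyb replicate 1. The cause was not tested.

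With the replicate number as a block, 7 genes were called with relative and 9 with spike-in scaling. Same-numbered libraries correlated at −0.03 to 0.61 in their deviations from the genotype means, and 6 of 8 correlated best with their own number, a hint that some numbers mark a shared origin. Since the pair at −0.03 showed no common deviation and no label gives the numbers a meaning, they were not taken to pair the cultures. With the block and spike-in scaling 0 of 9 genes had an unadjusted edgeR p under 0.05, beside 499 of 16470 tested genes. With the block and relative scaling 2 of 9 did. The share of all tested genes in that fit is not given here, and the 4.27% of the fit without the block is no measure for it. No excess among the 9 can therefore be read from the count. Ptch1 had an unadjusted edgeR p of 0.00991 and Gas1 of 0.0148. The smallest adjusted p was 0.385, and no call among the named genes changed. Without WT replicate 1 the unadjusted p of Ptch1 was 0.0438, and without WT replicate 4 that of Gas1 was 0.0146.

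Some values changed sign. With TMM factors over the spike-ins the log2 fold change was 0.038 for Gli3, 0.0093 for Ulk3 and 0.034 for Hhip, with spike-in totals it was 0.0026 for Gli3, and with the block it was 0.0099 for Hhip. With upper-quartile factors it was −0.022 for Sufu and −0.0014 for Cdon. Pearson's r of Gli1 with Ptch1 was 0.27 with spike-in scaling and −0.31 to 0.33 over the fits without a library. Leaving out single libraries with relative scaling gave log2 fold changes of −0.43 to −0.21 for Ptch1, −0.12 to 0.012 for Smo, −1.03 to −0.013 for Gli1, −0.31 to −0.098 for Gli2, −0.17 to −0.091 for Gli3, −0.081 to 0.092 for Sufu, −0.24 to 0.038 for Boc, −0.078 to 0.14 for Cdon, −0.50 to −0.20 for Gas1, 0.089 to 0.25 for Disp1, 0.068 to 0.26 for Hhat, −0.21 to 0.054 for Scube3, −0.72 to −0.53 for Arrb2, −0.38 to −0.17 for Arrb1, 0.17 to 0.43 for Gpc4, −0.21 to 0.0029 for Cul3, −0.21 to 0.047 for Ulk3, −0.10 to −0.0066 for Gsk3b, −0.27 to −0.055 for Dync2h1, 0.066 to 0.21 for Rab23, −0.21 to −0.025 for Ift80, −0.53 to −0.26 for Ccnd1, 0.10 to 0.15 for Rab34, 0.083 to 0.17 for Nrp1 and −0.26 to 0.064 for Hhip. With spike-in scaling it gave −0.44 to −0.0087 for Ptch1, −0.086 to 0.23 for Smo, −0.90 to 0.35 for Gli1, −0.16 to 0.17 for Gli2, −0.13 to 0.19 for Gli3, −0.0099 to 0.37 for Sufu, −0.18 to 0.28 for Boc, 0.0075 to 0.36 for Cdon, −0.43 to 0.027 for Gas1, 0.14 to 0.51 for Disp1, 0.073 to 0.45 for Hhat, −0.15 to 0.29 for Scube3, −0.59 to −0.27 for Arrb2, −0.36 to 0.029 for Arrb1, 0.13 to 0.55 for Gpc4, −0.091 to 0.27 for Cul3, −0.23 to 0.27 for Ulk3, −0.053 to 0.28 for Gsk3b, −0.22 to 0.18 for Dync2h1, 0.064 to 0.36 for Rab23, −0.21 to 0.14 for Ift80, −0.50 to −0.021 for Ccnd1, 0.093 to 0.38 for Rab34, 0.10 to 0.40 for Nrp1 and −0.22 to 0.29 for Hhip. Dhh and Foxl1 were too low to be tested.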
